A study of Homo sapiens with 30 samples.

Results

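Nascent transcription was set side by side in HT1080 cells, a human fibrosarcoma line, whose labels name a knockout of hNABP2 or a knockout of hNABP1. The comparison rests on 6 global run-on libraries of the 30 libraries in the series, chosen by their labels: 3 labelled hNABP2 KO and 3 labelled hNABP1 KO, all run with added nucleotides (with NTP) and numbered as repeats 1 to 3. Beside them stand 3 WT run-on libraries with NTP, and 3 libraries of each knockout label made without nucleotides (no NTP), in which no extension of transcripts should take place. All were labelled passage 10 to 15 and were pulled down with an anti-BrdU antibody. The sources used here do not give the kind of knockout, the number of clones or whether the repeats were separate cultures. Each p-value therefore measures the spread between these libraries, which may be technical.

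In a run-on assay, isolated nuclei are allowed to extend transcripts that a polymerase had already begun, with a brominated nucleotide that lets the new RNA be captured. The signal therefore follows engaged polymerase rather than stored RNA. The gene NABP2 encodes hNABP2, also called hSSB1, and the gene NABP1 encodes hNABP1, also called hSSB2; both proteins bind single-stranded DNA. Either of them joins INTS3 and INIP in the SOSS complex, which acts in DNA break repair and which is tied through INTS3 and INTS6 to Integrator, the complex that cleaves RNA made by RNA polymerase II.

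The depth was low and uneven. The libraries labelled hNABP2 KO held 19581, 6581 and 115923 counts over genes in repeats 1, 2 and 3, against 11091, 7553 and 115528 in those labelled hNABP1 KO and 11981, 5883 and 164357 in WT. A gene received at least 1 count in 6948, 2926 and 19178 of 26475 genes in the libraries labelled hNABP2 KO and in 5045, 2886 and 16587 in those labelled hNABP1 KO. Repeat 3 of the hNABP1 label stood apart from the other libraries in the ranking of its genes and in its number of peaks. At nearly the same total as its partner, 50% of its counts fell on 1818 genes, against 4165 genes in repeat 3 of the hNABP2 label and 4362 in WT repeat 3. Over 1676 genes with 50 or more counts, its levels ranked with those of hNABP2 KO repeat 3 at a Spearman correlation of -0.11, whereas the pairs of the knockout labels reached 0.65 in repeat 1 and 0.65 in repeat 2, and hNABP2 KO repeat 3 reached 0.49 with WT repeat 3. It was not unlike the other repeat 3 libraries in every measure: with group means removed, its levels correlated at 0.674 with those of hNABP2 KO repeat 3 and at 0.674 with those of WT repeat 3, and its peaks overlapped 35.8% of the 95 peaks of hNABP2 KO repeat 3 and 77.3% of the 264 peaks of WT repeat 3. Of its own 9965 peaks, 0.301% overlapped a peak of hNABP2 KO repeat 3 and 2.05% a peak of WT repeat 3. In repeats 1 and 2 its peaks overlapped 17.7% and 20.4% of those of the hNABP2 label, 17.4% and 13.5% of those of the hNABP1 label, and 22.3% and 16.4% of those of WT. How much overlap a list of that length gives by its number alone was not tested. These correlations are across genes of single libraries, share the depth of each library, and are given as a description. Of the 20 genes with the smallest p described below, 19 could be fitted without that library, and the log2 difference of 10 of them then moved by over 1.5 times or changed sign (11 with the replicate block).

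**Figure D1:**
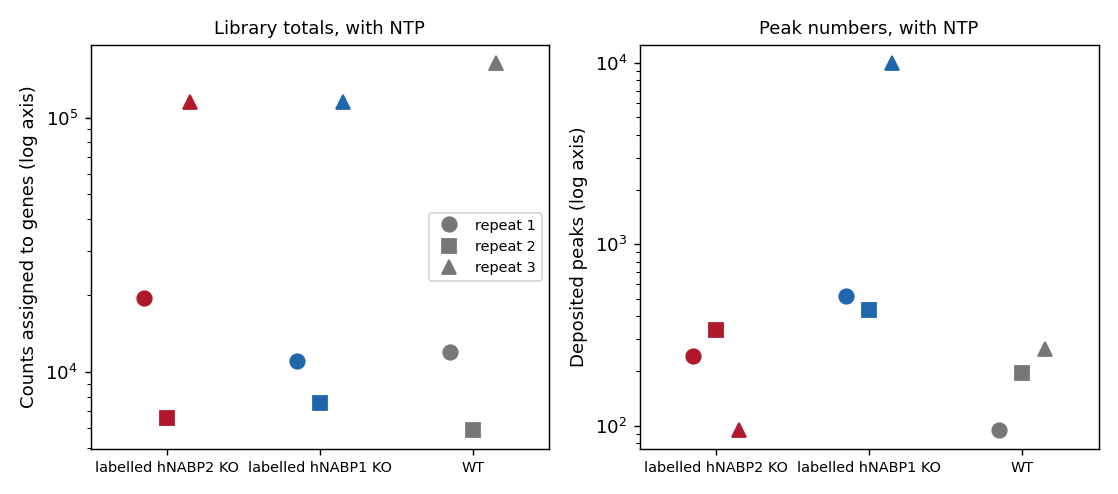
Total counts over genes (left) and number of deposited peaks (right) in each run-on library with NTP, on log axes, for the libraries labelled hNABP2 KO, hNABP1 KO and WT; circles, squares and triangles are repeats 1, 2 and 3. Repeat 3 is the deepest in every group, and hNABP1 KO repeat 3 alone has 9965 peaks, where the others have 94 to 518.

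The targeted genes were read first, as a check of the labels. NABP2 (chr12:56222015-56229854, protein coding) had 4, 3 and 15 counts in the libraries labelled hNABP2 KO, against 0, 0 and 6 in those labelled hNABP1 KO and 4, 0 and 8 in WT. The gene was thus higher in the libraries that bear its own knockout label in 3 of 3 repeats, and the knockout groups did not overlap in CPM, the count scaled to 1000000 counts of the library total. NABP1 (chr2:191678136-191686943, protein coding) had 2, 0 and 9 counts in libraries labelled hNABP2 KO, against 0, 1 and 18 in those labelled hNABP1 KO and 1, 0 and 19 in WT, and the groups overlapped. Neither pattern shows the loss that the label names. With no NTP the order was the same for NABP2, with 3, 2 and 3 counts in libraries labelled hNABP2 KO against 0, 0 and 1 in those labelled hNABP1 KO. A small deletion need not remove run-on signal, but the kind of knockout is not given. Whether the labels match the genotypes was not tested. The direction of every difference below is drawn from the labels as they stand.

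The partners of both proteins were at the edge of detection. INTS3, the scaffold of SOSS, had 0, 0 and 4 counts in libraries labelled hNABP2 KO, against 1, 1 and 6 in those labelled hNABP1 KO and 0, 0 and 6 in WT. INTS6, the subunit that links SOSS to Integrator, had 2, 0 and 15 counts against 2, 1 and 17 in the hNABP1 label and 2, 1 and 20 in WT. INIP, the small subunit, had 0, 0 and 2 counts against 0, 0 and 0 in the hNABP1 label. In CPM, INTS3 and INTS6 were lower in the hNABP2 label in 3 of 3 repeats, by at most 1 count in the shallow repeats. Of 13447 genes with 10 or more counts, 364 (2.71%) had groups that did not overlap in CPM, a state that 1 or 2 counts can set in repeats of this depth. Among the same genes 557 were higher and 285 lower in the hNABP2 label in 3 of 3 repeats. Of the 5 SOSS genes 0 were in the main test, because none had enough counts in 3 libraries.

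The main question was which genes differ in run-on level between the knockout labels. With edgeR's quasi-likelihood test on the 9 libraries with NTP, 129 genes had enough counts to be tested, and 0 (0%) passed an adjusted p of 0.05. The smallest adjusted p was 0.997, and 0 of the 129 had an unadjusted p under 0.05. Neither DESeq2 nor limma voom called a gene (0 each). Of the 129, 12 (9.3%) were higher in the hNABP2 label in 3 of 3 repeats, 16 (12.4%) were lower in 3 of 3, and 2 (1.55%) had groups that did not overlap. When the repeat number was kept as a block, 10 of the 129 genes had an unadjusted p under 0.05 and 0 passed, with a smallest adjusted p of 0.173. A miss at this depth does not show that the knockout labels are alike.

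The genes with the smallest p on the higher side are given with their counts. MALAT1 (chr11:65497738-65506516), an abundant nuclear lncRNA, had 36, 4 and 18 counts in the libraries labelled hNABP2 KO, against 7, 2 and 5 in those labelled hNABP1 KO and 11, 6 and 30 in WT. It was higher in the hNABP2 label within each of the 3 repeats, although the groups overlapped because the repeats differ in level. Its mean was 867 ± 871 CPM in the hNABP2 label and 313 ± 297 CPM in the hNABP1 label (SD, n = 3 each). The fitted log2 difference was 1.63 (SE 0.795), at an adjusted p of 0.997 by edgeR, or 0.195 with the replicate block. AHNAK (chr11:62433544-62546806), a giant scaffold protein under the plasma membrane, had 135, 1 and 21 counts against 26, 0 and 7 in the hNABP1 label and 27, 1 and 16 in WT. Repeat 1 of the hNABP2 label alone held 6894 CPM, against 2344 CPM in repeat 1 of the hNABP1 label. Its fitted log2 difference of 1.74 (SE 1.59) turned to -1.14 without that library, and with the replicate block it was 1.55 (SE 0.454, adjusted p = 0.173 by edgeR).

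FTSJ3, a methyltransferase of ribosome assembly, had 28, 3 and 19 counts in the libraries labelled hNABP2 KO, against 10, 2 and 2 in those labelled hNABP1 KO and 11, 4 and 18 in WT. NEIL1, a glycosylase of base excision repair, had 4, 18 and 25 counts, against 2, 12 and 6 in the hNABP1 label and 3, 8 and 10 in WT. Both were higher in 3 of 3 repeats, at log2 differences of 1.31 (SE 0.891) and 1.01 (SE 0.806), and neither passed. Without hNABP1 KO repeat 3 these were 0.72 for FTSJ3 and 0.81 for NEIL1. In both, the widest ratio was in repeat 3, where FTSJ3 had 164 CPM against 17.3 CPM and NEIL1 had 216 CPM against 51.9 CPM. COL4A2-AS1, an antisense lncRNA inside the collagen gene COL4A2, lay at 0.62 and SAMD11 at 0.56, each higher in 3 of 3 repeats. RAB26, a small GTPase of vesicle traffic, the protease gene CAPN12, the glucose transporter SLC5A2 and the lncRNA LOC100289511, which lies across SRSF5, lay at 0.52 to 0.61 and were higher in 2 of 3. Without hNABP1 KO repeat 3, SAMD11 lay at 0.31, CAPN12 at 0.31, SLC5A2 at 0.22 and LOC100289511 at 0.13.

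On the lower side, SMPD4 (chr2:130151392-130181757), a neutral sphingomyelinase, had 6, 2 and 19 counts in the libraries labelled hNABP2 KO, against 15, 7 and 32 in those labelled hNABP1 KO and 7, 5 and 37 in WT. It was lower in each repeat, at 258 ± 81.6 CPM in the hNABP2 label and 852 ± 542 CPM in the hNABP1 label (SD, n = 3 each). The log2 difference was -1.42 (SE 0.768), at an adjusted p of 0.997 by edgeR, or 0.173 with the replicate block. CCDC85B (chr11:65890673-65891635), a short gene for a coiled-coil protein of cell junctions, had 11, 3 and 32 counts against 10, 8 and 90 in the hNABP1 label and 8, 7 and 52 in WT. Its groups did not overlap in CPM, with 276 to 562 CPM in the hNABP2 label and 779 to 1059 CPM in the hNABP1 label. Its log2 difference of -1.57 (SE 0.968) did not pass, and with the replicate block it was -1.35 at an adjusted p of 0.195 by edgeR. It rests on repeat 3 of the hNABP1 label: without that library it was -0.01, or -0.64 with the replicate block (adjusted p = 0.998 by edgeR).

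PCNA-AS1, an antisense transcript inside the gene of the replication clamp PCNA, had 27, 7 and 9 counts in libraries labelled hNABP2 KO, against 29, 9 and 46 in those labelled hNABP1 KO. PCNA itself had 0, 0 and 13 counts against 0, 0 and 42 in the hNABP1 label. In repeats 1 and 2 the counts of such pairs lay mostly on the antisense gene, which held 62% to 71.7% of the counts of gene and antisense gene together, and in repeat 3 it held 35.5% in the hNABP2 label and 37.6% in the hNABP1 label. The sources used here do not give the strand setting of the counting, and reads of a gene and its antisense partner cannot be told apart. GAS6-AS1 was lower in 3 of 3 repeats with 6, 10 and 12 counts against 10, 16 and 17 in the hNABP1 label, and TYMSOS, opposite the thymidylate synthase gene TYMS, in 2 of 3 with 9, 6 and 12 counts against 17, 9 and 10 in the hNABP1 label. LOC100129046, which RefSeq's table does not hold under that symbol, and the lncRNA LINC01465 lay at log2 differences of -1.26 and -1.15. Without hNABP1 KO repeat 3, LINC01465 lay at -0.36 and LOC100129046 at -1.32. PCNA-AS1 lay at -1.21, or -1.35 with the replicate block, and the value with the block became -0.63 without that library.

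RNA45S5, RNA28S5 and LONP1 rest on repeat 3 of the hNABP1 label as well, and on its scaling. RNA45S5, the ribosomal RNA precursor, had 365, 28 and 686 counts in libraries labelled hNABP2 KO, against 72, 42 and 5647 in those labelled hNABP1 KO and 166, 53 and 807 in WT. It was lower in the hNABP2 label in repeats 2 and 3 and higher in repeat 1, and the fitted log2 difference of -2.72 (SE 1.75) became 1.81 without hNABP1 KO repeat 3. RNA28S5, the 28S ribosomal RNA, had 496, 175 and 357 counts against 346, 225 and 2528 in the hNABP1 label, at a log2 difference of -1.75 (SE 1.16), or -0.33 without that library. LONP1, the protease of the mitochondrial matrix, had 5, 19 and 49 counts against 3, 15 and 200 in the hNABP1 label, and its log2 difference of -1.74 (SE 1.24) became 0.95 without that library. The main fit scaled each library by its counts over the tested genes and its TMM factor. These were 10704 and 0.336 in hNABP1 KO repeat 3, and 4075 and 1.25 in hNABP2 KO repeat 3. With library totals in place of both, the log2 differences were -1.08 for RNA45S5, -0.59 for RNA28S5 and -0.21 for LONP1. The ribosomal DNA repeats are near-identical copies, so the place of such reads in the genome is uncertain.

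**Figure D2:**
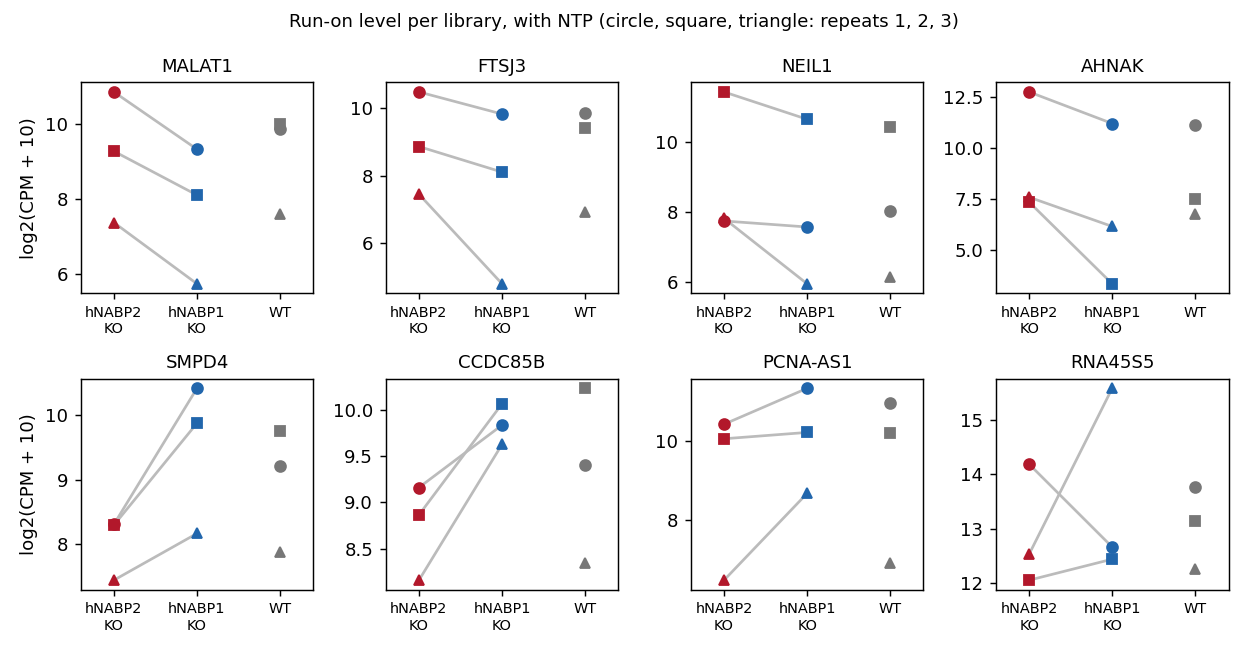
Run-on level as log2(CPM + 10) per library with NTP for 8 of the genes with the smallest p, with libraries labelled hNABP2 KO left of hNABP1 KO and WT at the right; lines join the same repeat number and circles, squares and triangles are repeats 1, 2 and 3. MALAT1, FTSJ3, NEIL1 and AHNAK slope down and SMPD4, CCDC85B and PCNA-AS1 slope up in 3 of 3 repeats, while RNA45S5 turns between repeats; the offset between repeats is wider than most of the slopes.

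The genes with the highest run-on level showed no shared direction. VIM-AS1, antisense to the intermediate filament gene VIM, had 596, 103 and 143 counts in libraries labelled hNABP2 KO, against 508, 127 and 119 in those labelled hNABP1 KO. COL5A1, a fibrillar collagen gene, had 45, 96 and 170 counts against 53, 237 and 100 in the hNABP1 label. The lncRNA C10orf55, which overlaps the urokinase gene PLAU, had 110, 99 and 81 counts against 66, 81 and 38 in the hNABP1 label. MFSD11, which overlaps the splicing factor gene SRSF2, had 49, 31 and 38 counts against 30, 47 and 51 in the hNABP1 label, and was lower in CPM in 3 of 3 repeats. RMRP, the RNA of RNase MRP, had 85, 21 and 83 counts against 53, 39 and 66 in the hNABP1 label, and RN7SK, which keeps P-TEFb in an inactive particle, had 46, 10 and 122 against 25, 43 and 58 in the hNABP1 label. SNX22, a sorting nexin gene that overlaps PPIB, had 86, 15 and 36 counts against 68, 20 and 23 in the hNABP1 label. None of these passed the test.

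A wider test, over genes with 10 or more counts in all and with the repeat number as a block, tested 13447 genes. It called 19 of them (0.141%), all lower in the libraries labelled hNABP2 KO, and the same genes without the block gave 0 calls (248 with an unadjusted p under 0.05). The 19 are genes with almost no counts in repeats 1 and 2 and a high count in repeat 3 of the hNABP1 label. Of the 19, 4 reached 10 counts only through that library: without it INTS7 held 9 counts over the libraries with NTP, and LOC100505841, SFR1 and MIR3180-5 held 7 each. Those 4 could hardly be tested unless they were high there, and their calls are given as a description. UBE2S, an ubiquitin-conjugating enzyme of the anaphase-promoting complex, had 0, 1 and 11 counts in libraries labelled hNABP2 KO, against 1, 0 and 202 in those labelled hNABP1 KO and 0, 0 and 10 in WT. MAP2K7, a kinase of the JNK pathway, had 0, 1 and 15 counts against 1, 0 and 278 in the hNABP1 label, and 0, 0 and 17 in WT. P4HB, protein disulfide isomerase and a subunit of collagen prolyl hydroxylase, had 2, 0 and 10 counts against 0, 0 and 238 in the hNABP1 label, and 1, 0 and 16 in WT. INTS7, a subunit of Integrator, had 0, 0 and 1 counts against 0, 0 and 49 in the hNABP1 label, and 0, 0 and 8 in WT.

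Other genes of the 19 had the same shape, and their counts in repeat 3 follow. LSM4, of the U6 snRNA and decapping ring, had 8 counts in repeat 3 of the hNABP2 label against 159 in repeat 3 of the hNABP1 label and 21 in WT repeat 3. The ubiquitin ligase RNF126 had 1 in the hNABP2 label, 45 in the hNABP1 label and 13 in WT. POLR3G, a subunit of RNA polymerase III, had 4 in the hNABP2 label, 68 in the hNABP1 label and 12 in WT. NCAPH, a condensin subunit, had 1 in the hNABP2 label, 33 in the hNABP1 label and 8 in WT, HSD17B4, an enzyme of peroxisomal fatty acid oxidation, had 1 in the hNABP2 label, 44 in the hNABP1 label and 9 in WT, and SFR1 had 3 in the hNABP2 label, 59 in the hNABP1 label and 4 in WT. TCAIM had 3 in the hNABP2 label, 77 in the hNABP1 label and 23 in WT, LONRF1 had 3 in the hNABP2 label, 55 in the hNABP1 label and 14 in WT, and THAP7-AS1 had 15 in the hNABP2 label, 214 in the hNABP1 label and 17 in WT. LOC100505841 had 6 in the hNABP2 label, 222 in the hNABP1 label and 1 in WT, and LOC105377348 had 5 in the hNABP2 label, 76 in the hNABP1 label and 10 in WT.

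Only UBE2V2, a partner of the K63-linkage ubiquitin enzyme, and SARAF, a regulator of calcium entry, were lower in 3 of 3 repeats among the 19, with groups that did not overlap. Over all 13447 genes, 285 were lower in 3 of 3 repeats and 364 had groups that did not overlap. UBE2V2 had 0, 0 and 4 counts in libraries labelled hNABP2 KO, against 2, 1 and 111 in those labelled hNABP1 KO, and SARAF had 0, 0 and 11 against 2, 1 and 127 in the hNABP1 label. The fitted log2 differences of the called genes named here ran from -5.50 for INTS7 to -3.66 for THAP7-AS1, and adjusted p by edgeR from 0.00612 to 0.0471. Without repeat 3 of the hNABP1 label 0 of 12222 genes were called, and 15 of the 19 pass the filter of that test. It could not call RNF126, TCAIM, HSD17B4, POLR3G or LONRF1, which have 0 counts in repeats 1 and 2 of both labels. Their SE there was 19900 to 30930. P4HB and LSM4 turned to 3.78 (SE 3.71) and 2.13 (SE 3.91). Without repeat 3 of the hNABP2 label 0 of 11134 genes were called. Without repeat 1 of the hNABP1 label 104 genes were called, without its repeat 2 it was 37, and without repeat 1 or 2 of the hNABP2 label 20 and 9, all lower. Repeats 1 and 2 alone gave 1271 genes and 0 calls, with 48 at an unadjusted p under 0.05.

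**Figure D3:**
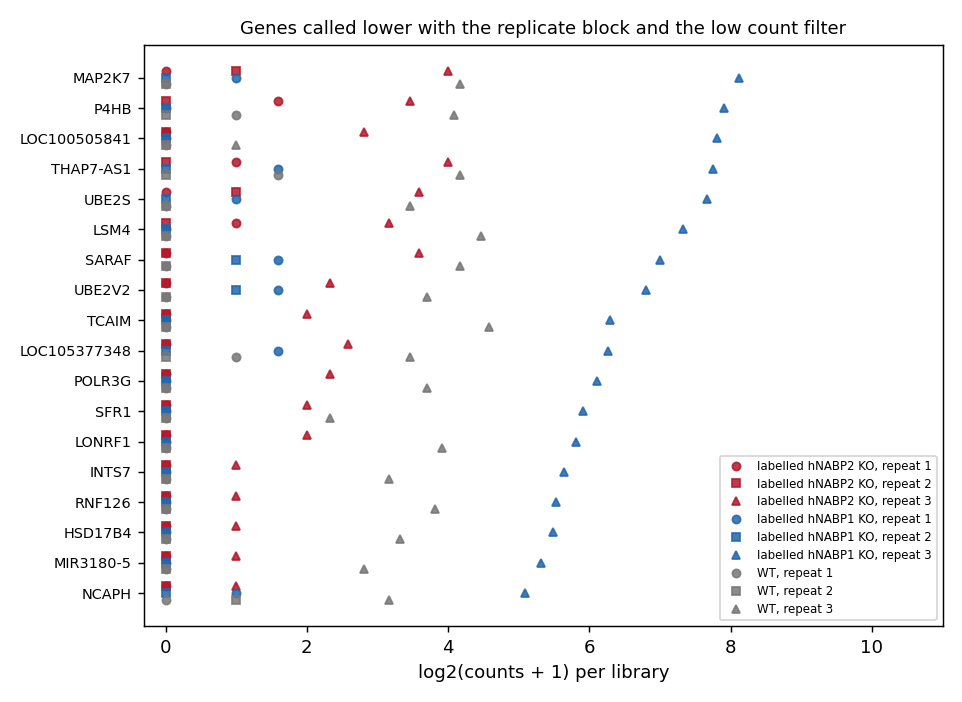
Counts per library, as log2(counts + 1), of 18 of the 19 genes called lower in the libraries labelled hNABP2 KO with 10 or more counts and the replicate block, sorted by hNABP1 KO repeat 3. The triangle of hNABP1 KO repeat 3 lies right of all others in each of the 18 rows, and the circles and squares of repeats 1 and 2 lie at 0 to 2 counts.

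MIR3180-5 (chr16:2135977-2136129), a microRNA gene with near-identical copies, was also among the 19, with 0, 0 and 1 counts in libraries labelled hNABP2 KO, against 0, 0 and 39 in those labelled hNABP1 KO and 0, 0 and 6 in WT. Its mature RNA has the same sequence as that of MIR3180-4, so the counting cannot be taken to separate such copies. It is shown from RefSeq (GRCh38.p14) with the seed, bases 2 to 8, in capitals because it is the only microRNA called.
hsa-miR-3180: uGGGGCGGagcuuccggag

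Repeat 3 was then looked at on its own, where both labels have nearly equal totals, as a description of 1 library each. Of 2940 genes with 20 or more counts over the pair, 263 (8.95%) were at least 4-fold lower in hNABP2 KO repeat 3 and 45 (1.53%) at least 4-fold higher, on a scale of CPM + 10. In repeat 1 the same rule gave 4 lower and 5 higher of 146 genes, and in repeat 2 it gave 2 lower and 2 higher of 72. Among those 146 and 72 genes the lower and higher were thus about equal in number, and an excess of lower genes was seen in repeat 3 only. The rule takes in far fewer genes in repeats 1 and 2, so most of the 2940 genes could not be read there.

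Gene lists were described by their share of the counts in each library, since 0 to 5 members of a list were in the main test and 0 of any list passed. The S phase and replication list (31 genes) took 0.230%, 0.0912% and 0.228% of the counts in libraries labelled hNABP2 KO, against 0.261%, 0.119% and 0.436% in those labelled hNABP1 KO. The immediate early list (30 genes in the table) took 0.138%, 0.106% and 0.270% against 0.207%, 0.119% and 0.560% in the hNABP1 label. The cholesterol and fatty acid synthesis list took 0.245%, 0.304% and 0.191% against 0.361%, 0.384% and 0.295% in the hNABP1 label, and the Integrator list 0.0255%, 0.0152% and 0.0811% against 0.0451%, 0.0530% and 0.0943% in the hNABP1 label. These 4 of 25 lists were lower in the hNABP2 label in 3 of 3 repeats. In repeat 3 the Integrator list was lower only through INTS7. That gene held 1 of the 94 Integrator counts of the hNABP2 label there and 49 of the 109 of the hNABP1 label. The G2 and mitosis list was higher in 3 of 3, with 0.245%, 0.0456% and 0.132% against 0.234%, 0.0265% and 0.0961% in the hNABP1 label, where 3 counts against 2 made up the values of repeat 2. The lower lists were thin in repeat 2 as well. There Integrator had 1 count against 4, S phase 6 against 9, immediate early 7 against 9 and cholesterol 20 against 29 in the hNABP1 label. Integrator had 5 against 5 in repeat 1.

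Single genes show how these shares arose. Among the replication genes, the helicase subunit gene MCM2 had 1, 0 and 16 counts in libraries labelled hNABP2 KO, against 1, 0 and 64 in those labelled hNABP1 KO, and MCM7 had 14, 1 and 21 against 2, 2 and 45 in the hNABP1 label. UHRF1, which keeps DNA methylation through replication, had 0, 0 and 7 counts against 4, 0 and 41 in the hNABP1 label. Among the immediate early genes, the AP-1 gene JUND had 0, 1 and 12 counts against 0, 2 and 143 in the hNABP1 label, ATF3 had 0, 0 and 8 against 0, 0 and 61 in the hNABP1 label, and KLF10 had 0, 0 and 19 against 1, 0 and 74 in the hNABP1 label. FASN, the fatty acid synthase, had 4, 0 and 26 counts against 4, 2 and 58 in the hNABP1 label, and its groups did not overlap. In raw counts the widest gap of each of these genes lay in repeat 3, and MCM7 was higher in the hNABP2 label in repeat 1.

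Over genes with 10 or more counts and the replicate block, 29 replication genes were tested, 23 had a log2 difference below 0 and 0 were called; their median was -0.69, beside a median of 0.13 over all 13447 genes. Without repeat 3 of the hNABP1 label the same median was 0.22 over 28 genes, beside 0.16 over all genes. The immediate early genes had a median of -0.34 over 28 genes with 0 called, and -0.12 over 25 genes without that library. The Integrator genes had a median of -0.06 over 12 genes and -0.14 over 10 without that library; INTS7, which passed the count filter only through that library, says nothing of the list. Collagen and matrix genes had a median of 0.34 over 28 genes and 0.23 over 26 without that library, with 0 called.

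The other lists turned between repeats. Cytoskeleton and linker genes took 2.72%, 0.684% and 0.424% of the counts in libraries labelled hNABP2 KO, against 1.86%, 0.516% and 0.589% in those labelled hNABP1 KO. Collagen and matrix genes took 1.27%, 1.70% and 0.431% against 1.42%, 3.28% and 0.260% in the hNABP1 label. In repeat 2 the gene COL5A1 held 96 of the 112 collagen and matrix counts of the hNABP2 label and 237 of the 248 of the hNABP1 label. The shares of both lists differed more between repeats than between labels. Ribosomal RNA took 4.42%, 3.08% and 0.907% against 3.77%, 3.55% and 7.16% in the hNABP1 label. R-loop factors, the helicases and nucleases that resolve RNA:DNA hybrids, took 0.240%, 0.137% and 0.148% against 0.216%, 0.238% and 0.137% in the hNABP1 label, and XRN2, the exonuclease of transcription termination, was higher in 3 of 3 repeats with 2, 1 and 18 counts against 0, 0 and 5 in the hNABP1 label. As a check of the cell type, mesenchymal, epithelial, neural and leukocyte marker lists were read. The mesenchymal markers took 0.960%, 1.61% and 0.259% against 1.11%, 3.27% and 0.172% in the hNABP1 label. Much of this was COL5A1, with 96 of 106 counts in repeat 2 and 170 of 300 in repeat 3 of the hNABP2 label. In the hNABP1 label it held 237 of 247 and 100 of 199. FN1 and THBS1 had 0 counts in repeat 2 of both labels. The 7 epithelial markers took 0.194%, 0.0912% and 0.0302% against 0.270%, 0.0530% and 0.0173% in the hNABP1 label, so they were not absent. Among them the keratin gene KRT8 had 32, 3 and 9 counts against 23, 2 and 8 in the hNABP1 label. The 5 neural markers took 0.046%, 0.0304% and 0.0362% against 0.018%, 0.0265% and 0.0364% in the hNABP1 label. In repeat 3 of both labels the neural share was thus larger than the epithelial share. The 5 leukocyte markers were at 0 in repeats 1 and 2 of both labels and took 0.0112% of the counts of repeat 3 of the hNABP2 label and 0.00173% of repeat 3 of the hNABP1 label.

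**Figure D4:**
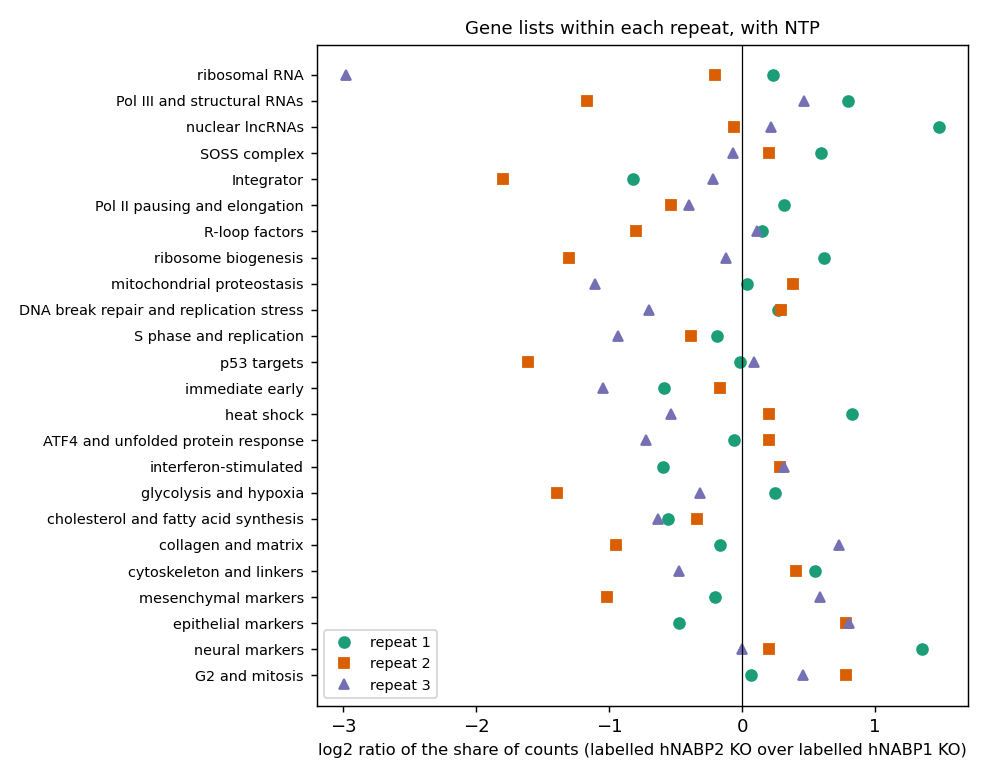
Log2 ratio of the share of counts held by each of 24 gene lists, libraries labelled hNABP2 KO over hNABP1 KO, within repeats 1, 2 and 3; leukocyte markers, at 0 in repeats 1 and 2, are left out. Integrator, S phase, immediate early and cholesterol lists lie left of 0 in 3 of 3 repeats and G2 and mitosis right of it, while the other lists spread over both sides. The Integrator point of repeat 3 lies left of 0 only through INTS7.

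The libraries without nucleotides show what the same labels give when no extension is added. Between hNABP2 KO and hNABP1 KO with no NTP, 0 of 211 genes (0%) passed edgeR's test, with 2 at an unadjusted p under 0.05; 0 passed by DESeq2 and 0 by voom. The effect of NTP in the hNABP2 label was compared with that in the hNABP1 label in 1 model, and 0 of 211 genes (0%) passed, with 1 at an unadjusted p under 0.05; DESeq2 and voom called 0. MALAT1 had 8, 7 and 8 counts in the libraries labelled hNABP2 KO with no NTP, against 2, 2 and 2 in those labelled hNABP1 KO with no NTP, a log2 difference of 1.89 (SE 0.851, adjusted p = 0.990 by edgeR). With NTP the difference was 1.63, and the difference of the 2 in the model of all 18 run-on libraries was -0.22 (SE 0.966, adjusted p = 0.999 by edgeR), an SE larger than the value itself.

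The peak lists of the 6 libraries were compared next. They held 243, 338 and 95 peaks in the libraries labelled hNABP2 KO, against 518, 431 and 9965 in those labelled hNABP1 KO and 94, 195 and 264 in WT. The hNABP2 label had fewer peaks in 3 of 3 repeats, at a mean difference of -2.72 in log2 peak number. The groups did not overlap, and the two-sided exact permutation p was 0.1, the smallest that 3 libraries against 3 can give. In repeats 1 and 2 alone the difference was -0.72, and without hNABP1 KO repeat 3 it was -1.25 (exact permutation p = 0.2). Among peaks with a -log10 q of 5 or more, the hNABP2 label had fewer in repeat 3 only and more in repeats 1 and 2. The peaks covered 78.0, 72.2 and 25.0 kb in the hNABP2 label and 141, 90.4 and 3760 kb in the hNABP1 label. The number of peaks did not follow depth: hNABP2 KO repeat 3 had 0.82 peaks per 1000 counts and hNABP1 KO repeat 3 had 86.3, at nearly equal totals.

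The peaks lay near gene starts in part. Of the peaks on chromosomes with RefSeq starts in the table used, 38.0%, 32.5% and 37.8% had a summit within 1 kb of a start in the libraries labelled hNABP2 KO, against 39.9%, 29.5% and 53% in those labelled hNABP1 KO and 41.6%, 38.0% and 78.5% in WT. WT repeat 3 thus had the highest share. The exact Clopper-Pearson 95% intervals, which cover counting error only, were 27.3% to 49.2% for hNABP2 KO repeat 3 and 52.0% to 54.0% for hNABP1 KO repeat 3, and in repeats 1 and 2 the intervals of both labels overlapped. The median summit of these peaks lay 199, 151 and 10 bp downstream of the start in the hNABP2 label, against 156 and 150.5 bp downstream in repeats 1 and 2 and 3 bp upstream in repeat 3 of the hNABP1 label. The position of the summit thus went with the repeat number in both labels: past the start in repeats 1 and 2, and on it in repeat 3.

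**Figure D5:**
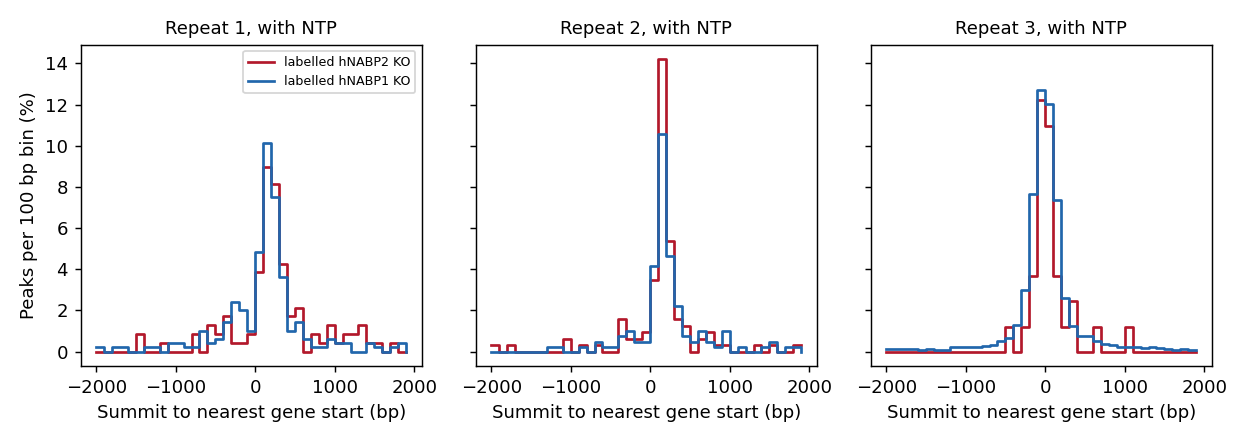
Share of the deposited peaks in each 100 bp bin of the distance from the summit to the nearest gene start, in the direction of the gene, for libraries labelled hNABP2 KO and hNABP1 KO in repeats 1, 2 and 3 with NTP. In repeats 1 and 2 both labels peak downstream of 0 and in repeat 3 both peak at 0, so the curves differ more between repeats than between labels; hNABP2 KO repeat 3 has 95 peaks and hNABP1 KO repeat 3 has 9965.

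The anti-hNABP2 ChIP of WT cells gave a set of 10068 binding peaks in its repeat 1 and 2832 in its repeat 2. Of the run-on peaks, 30.9%, 31.1% and 41.1% overlapped a ChIP peak of either repeat in the libraries labelled hNABP2 KO, against 29.9%, 25.5% and 49.0% in those labelled hNABP1 KO and 39.4%, 32.8% and 79.2% in WT. The mean difference was -0.475 percentage points (two-sided exact permutation p = 1.0), and it became 6.61 points without hNABP1 KO repeat 3. In repeats 1 and 2 the share was higher in the hNABP2 label in 2 of 2, with overlapping intervals. That order in repeats 1 and 2 turned when weaker peaks were left out. Among peaks with a -log10 q of 5 or more the shares were 31.4%, 54.1% and 46.9% in the hNABP2 label, against 40.5%, 60.7% and 79.7% in the hNABP1 label, lower in the hNABP2 label in 3 of 3 repeats. There the mean difference was -16.2 points (two-sided exact permutation p = 0.3), over 105, 61 and 32 peaks in the hNABP2 label and 74, 56 and 4353 in the hNABP1 label.

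Few peaks recurred. Merged over the 6 libraries, the peaks formed 11234 regions, of which 9704 were covered by hNABP1 KO repeat 3 alone and 3 by all 6 libraries. Those 3 lie in the ribosomal DNA copies RNA45SN3 (chr21:8396034-8396915) and RNA45SN2 (chr21:8213043-8213878) and on RN7SL1, the RNA of the signal recognition particle (chr14:49586591-49586870). The authors' fold over local background at RNA45SN3 was 1.76, 17.3 and 4.76 in the libraries labelled hNABP2 KO, against 2.16, 5.96 and 54.2 in those labelled hNABP1 KO. At RN7SL1 it was 1.37, 12.4 and 2.17 against 1.38, 1.88 and 3.08 in the hNABP1 label. In all, 9 regions were covered in 2 or 3 libraries of both labels; the others include RN7SL2, the Cajal body RNA SCARNA2, RPPH1, the RNA of RNase P, and a stretch of mitochondrial DNA (chrM:1216-3198).

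Regions of 1 label were fewer in the hNABP2 label. Only 2 regions were covered in 2 or 3 libraries labelled hNABP2 KO and in none labelled hNABP1 KO: one on a glutamine tRNA pseudogene, TRQ-CTG9-1 (chr1:148353571-148353954, folds of 9.38 and 4.93 in repeats 1 and 2), and one on SNHG10 and the small RNA SCARNA13 inside it (chr14:95533363-95533610, folds of 1.77 and 5.33). In the other direction there were 129 regions, of which 126 included hNABP1 KO repeat 3. With that library left aside, 5 regions were covered in both remaining libraries labelled hNABP1 KO and in none labelled hNABP2 KO, and 3 in the other direction. Among those with the highest mean fold, regions lay at the starts of ZBTB2, a zinc finger repressor gene (folds of 3.93 and 73.9 in repeats 1 and 3), the lncRNA CRNDE (3.93 and 52.8) and DNAJC13, an endosomal co-chaperone gene (2.96 and 38.8 in repeats 2 and 3), and on the tRNA gene TRN-GTT2-3 (2.95 and 46.3 in repeats 1 and 3). A fold of about 3 in repeats 1 and 2 is near the median of their lists, which was 2.95 and 3.61.

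At the starts of the 19 called genes the peak lists and the counts can be set side by side. Of the 11 genes with a start in the RefSeq table, 10 had a peak of hNABP1 KO repeat 3 within 1 kb, and 0 had a peak of any of the other 8 run-on libraries with NTP. Among 9883 genes with 10 or more counts and a start in the table, 4181 (42.3%) had such a peak. The genes were called with counts of the same library, so this is a description and not a second line of evidence. The folds were 128 at UBE2S, 97.7 at P4HB, 97.2 at MAP2K7, 60.1 at THAP7-AS1, 57.3 at NCAPH, 57.0 at LSM4, 45.3 at TCAIM, 23.9 at RNF126, 19.6 at HSD17B4 and 16.9 at INTS7, and SFR1 had none at the start used. Only 1 start per gene was used here, and a further start of SFR1 (window chr10:104121858-104122157) was not looked at. A peak of ChIP repeat 1 lay within 1 kb of 9 of the 11 starts, against 58.1% of the 9883 genes. SFR1 was not among the 9, though it is listed with a promoter peak in ChIP repeat 1. For ChIP repeat 2 it was 3 of the 11, against 17.2%.

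The promoters of UBE2S, P4HB and MAP2K7 are shown because they carry the highest of these folds, and that of INTS7 because it is the Integrator gene of the set. Each window runs from 250 bases before to 50 after the start, from RefSeq (GRCh38.p14), 5′ to 3′ in the direction of the gene. The summits of the hNABP1 KO repeat 3 peaks lay 195, 195, 150 and 83 bases upstream of the starts, inside the windows. Capitals mark GGGCGG, the GC box of SP and KLF factors, and CCAAT, the NF-Y box, on either strand.
UBE2S (chr19:55407739-55408038, minus strand): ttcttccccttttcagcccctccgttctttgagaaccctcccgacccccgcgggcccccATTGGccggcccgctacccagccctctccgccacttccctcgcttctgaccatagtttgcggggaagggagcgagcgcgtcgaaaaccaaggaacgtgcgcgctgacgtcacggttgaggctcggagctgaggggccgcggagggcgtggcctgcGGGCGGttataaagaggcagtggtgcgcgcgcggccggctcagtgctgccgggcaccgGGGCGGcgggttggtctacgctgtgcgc
P4HB (chr17:81860486-81860785, minus strand): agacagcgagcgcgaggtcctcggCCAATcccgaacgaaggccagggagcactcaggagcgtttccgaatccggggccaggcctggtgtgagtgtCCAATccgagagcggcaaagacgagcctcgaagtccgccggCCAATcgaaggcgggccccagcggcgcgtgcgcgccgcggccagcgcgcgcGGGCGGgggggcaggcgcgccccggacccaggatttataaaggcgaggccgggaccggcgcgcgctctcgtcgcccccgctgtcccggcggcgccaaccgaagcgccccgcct
MAP2K7 (chr19:7903627-7903926, plus strand): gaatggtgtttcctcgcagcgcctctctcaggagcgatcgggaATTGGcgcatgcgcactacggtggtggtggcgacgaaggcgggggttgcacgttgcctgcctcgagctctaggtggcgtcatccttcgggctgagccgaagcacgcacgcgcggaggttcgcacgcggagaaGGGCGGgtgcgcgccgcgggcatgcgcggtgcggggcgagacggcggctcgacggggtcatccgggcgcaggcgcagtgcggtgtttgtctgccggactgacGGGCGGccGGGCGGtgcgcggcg
INTS7 (chr1:212035508-212035807, minus strand): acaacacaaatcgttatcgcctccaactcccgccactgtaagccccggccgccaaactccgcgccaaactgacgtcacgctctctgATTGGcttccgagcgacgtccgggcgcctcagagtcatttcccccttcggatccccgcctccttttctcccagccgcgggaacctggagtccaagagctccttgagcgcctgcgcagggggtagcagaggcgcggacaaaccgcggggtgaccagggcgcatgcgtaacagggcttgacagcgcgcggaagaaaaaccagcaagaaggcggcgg

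GGGCGG on either strand was found in a window of 9 of the 11 genes, against 48.3% of 27305 genes with a window, and CCAAT in 7 of 11 against 39.7%. P4HB held CCAAT 3 times, MAP2K7 held GGGCGG 3 times, and INTS7 held 1 CCAAT and no GGGCGG. The palindrome of NRF1, searched with its middle base free, was in 6 of 11 (INTS7, MAP2K7, NCAPH, P4HB, TCAIM and THAP7-AS1) against 6.98%, the CREB core TGACG in 7 of 11 against 28.4%, TATAAA in 4 of 11 against 14.0%, and the ETS motif CCGGAAG in 1 of 11 against 12.2%. All motifs were searched on both strands, and none contains another. These shares are over all genes with a window, with or without run-on counts, whereas the called genes had to pass the count filter. The share among genes that pass it was not tested. The median GC content of the windows of the called genes was 69.0%, against 58.7% over all windows, and GC-rich letters are common to both the GC box and the NRF1 motif. These matches describe letters in a window and do not show that a factor is bound.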

How the data were processed

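The deposited count table holds raw counts per gene symbol; per the file headers and its values, the authors applied no normalization. Each deposited peak has a fold (the ratio of its summit to the local background), a score, and -log10 p and -log10 q values in the MACS2 layout. Per the submitters' processing notes, the hg38 build was used, with MACS2 2.2.1, SAMtools, Bowtie2 2.3.5 and cutadapt 1.18. The sources used here do not give the counting tool, its strand setting or the controls of the peak calling. Members and gene lists were chosen with earlier results of these data known.

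The quasi-likelihood test of edgeR 4.0.16 (R 4.3.3) compared the counts of the 9 libraries with NTP after filterByExpr and TMM; p-values were adjusted by Benjamini and Hochberg's method over every tested gene, and 0.05 was the threshold. As alternatives, voom of limma 3.58.1 and DESeq2 1.42.0 were used, and the scripts were tested on simulated data. Library sizes of the main fit were the counts over the tested genes, and TMM gave hNABP1 KO repeat 3 a factor of 0.336. CPM values are counts scaled to a library total of 1000000 and are not on the scale of the fitted differences. With group means removed, same-number libraries correlated at 0.337 to 0.681 and the others at -0.632 to 0.0206 over 1676 genes. Removing the means pushes the values of the others below 0 in part by itself, and same-number libraries are alike in depth. These correlations therefore cannot show by themselves that the repeat numbers pair the libraries, and the pairing follows the labels. The fit with the replicate block stands beside the unpaired one where it changes a call. Peaks were set against starts within 1000 bp and against ChIP peaks at 1 bp or more of overlap; 13 ChIP peaks without an interval were used as their summits. RefSeq (GRCh38.p14) gave positions for 23749 of 26475 symbols and promoter windows for 16199. Fold changes are named for the 10 smallest p in each direction; other named genes are the targets, the 10 highest levels, the genes called with the replicate block and 10 or more counts, and the members of fixed lists with the most counts. Some list members (INTS6, XRN2, MCM2, MCM7, UHRF1, JUND, ATF3, KLF10, FASN), the partner PCNA and 6 of the 19 called genes (SARAF, MAP2K7, THAP7-AS1, UBE2S, P4HB and LSM4) were added after their values were seen. Of the 19 called genes, 1 is not reported here.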

Additional observations from a re-analysis of the deposited data

How the results depend on the processing

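No gene passed by edgeR with size factors of the RLE kind, no filter, the 6 knockout libraries alone, repeats 1 and 2 alone, library totals without TMM, or without RNA45S5 and RNA28S5, nor did any by DESeq2 or limma voom. With the replicate block 0 of 129 genes passed; with the block and 10 or more counts 19 passed. Leaving out 1 library moved the calls with the block over the range 0 to 2 (2 without hNABP1 KO repeat 1, 1 without its repeat 2), and those with the block and 10 or more counts over the range 0 to 104 (values of 20, 104, 9 and 37 when a library of repeats 1 or 2 is left out); without the block they stayed at 0. The calls end without either library of repeat 3. Library totals, in place of TMM and of the counts over the tested genes, moved the median log2 difference of the 129 genes to -0.13 from -0.02, with 49 in place of 62 above 0.

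RNA45S5, over -3.03 to 1.81 when 1 library was left out, reversed to 1.81 without hNABP1 KO repeat 3 and to 1.31 over repeats 1 and 2. With the replicate block it was 0.024 without hNABP2 KO repeat 3, 0.86 without hNABP1 KO repeat 3 and 0.85 over repeats 1 and 2, and with 10 or more counts as well it was 0.90 and 0.82. RNA28S5 reversed with the block and without hNABP1 KO repeat 3, to 0.24, or 0.27 with 10 or more counts. LONP1, over -2.18 to 0.95 when 1 library was left out, reversed to 0.95 without hNABP1 KO repeat 3 and 0.49 over repeats 1 and 2; with the block these were 0.41 and 0.44, and with 10 or more counts as well 0.28 and 0.40. AHNAK, over -1.14 to 4.03 when 1 library was left out, reversed to -1.14 without hNABP2 KO repeat 1. CCDC85B kept its sign over -2.16 to -0.01, with -0.01 without hNABP1 KO repeat 3. The cause was not tested. The difference in the share of peaks on ChIP peaks reversed to 1.01 points when 50% of a peak had to be covered and to 3.24 points over repeats 1 and 2. For peaks with a -log10 q of 5 or more it kept its sign at -16.2 points, against -0.475 over all peaks. Leaving out 1 library moved it over -5.12 to 6.61 points, with 1.26 without hNABP2 KO repeat 1 and 1.16 without its repeat 2. The difference in log2 peak number kept its sign, over -3.52 to -1.25 when 1 library was left out. For peaks with a -log10 q of 5 or more it was -2.15 (two-sided exact permutation p = 0.5), and that value rests on repeat 3. There the hNABP2 label had 32 such peaks against 4353 in the hNABP1 label. In repeats 1 and 2 it had more, with 105 and 61 against 74 and 56 in the hNABP1 label. With repeats as pairs the exact p of the difference over all peaks was 0.25. Repeats 1 and 2 hold few counts, and there a gene with 0 counts can be as frequent as 3 counts allow.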
